A study of Mus musculus with 8 samples.

Results

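The genes described here are the Wnt ligands and their receptors: 19 Wnt genes, 10 Frizzled genes and the co-receptor genes Lrp5 and Lrp6. They were taken by gene symbol from the array annotation, which gave 1 transcript cluster (the set of probes for a gene) for each of the 31, among 19505 genes with a symbol. RNA was measured on 8 Clariom S Mouse arrays, each from a culture of fibroblasts from the tail tips of postnatal mice (TTFs). Retroviruses had brought in GHMT, that is Gata4, Hand2, Mef2c and Tbx5, cardiac transcription factors that can push fibroblasts towards a cardiomyocyte-like state, and each compound was added together with the viruses. TTF set 1 held GHMT alone (the vehicle arm, DMSO by the growth protocol), GHMT with diclofenac (which blocks the cyclooxygenases of prostaglandin synthesis), GHMT with an antagonist of the prostaglandin receptor EP4, and GHMT with diclofenac and added prostaglandin E2 (PGE2). TTF set 2 held GHMT alone, and GHMT with the EP4 antagonist, with a TGFb inhibitor or with a Wnt inhibitor, each in its own culture. GHMT and the EP4 antagonist thus had 2 arrays each and every other treatment had 1. All 8 cultures were labelled as transduced with GHMT, and untransduced cells were not analysed here. Doses, the time of harvest, mouse strain and age, and the names of the EP4 antagonist, TGFb inhibitor and Wnt inhibitor are not stated in the labels. The labels do not say whether the sets came from different animals, so p-values measure only the spread between these samples, which may be technical.

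Wnt proteins are secreted, lipid-modified signals that bind the cysteine-rich outer domain of a Frizzled receptor. Together with Lrp5 or Lrp6, a Frizzled receptor keeps beta-catenin from being degraded, so that it can act with TCF and LEF factors on target genes; without these co-receptors, Frizzleds also steer cell polarity and calcium signalling. In the embryo, Wnt signals are needed early for mesoderm and have to be restrained later for cardiac differentiation, and inhibition of the pathway has been used to improve cardiac reprogramming of fibroblasts.

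All values are log2 signals, and a gene counts as above background in an array where it exceeds 95% of that array's 23 background probe sets, a level of 5.73 to 5.99. Between 43.7% and 45.7% of the 22206 transcript clusters lay above it in an array, and the median cluster was at 5.10 to 5.29. The fibroblast part of the TTF label was borne out, with all 6 matched fibroblast markers above background in all 8 arrays (7.91 to 17.38). The tail-tip origin was not tested by markers. All 6 keratinocyte, 4 endothelial and 2 matched Schwann cell markers were at background in all 8 arrays, as were 3 of 4 matched macrophage markers, while Lyz2 lay above it in 1 array, that with the Wnt inhibitor (6.47). Mef2c, Tbx5 and Hand2 were above background in every array (11.01 to 19.27). The cluster for Gata4 was at background in all 8 (3.91 to 4.44), against the label for that factor, and whether its probes lie in the transduced sequence was not tested. Signals of different genes depend on their probes, so the levels of different genes are not ranked. In these bulk cultures, fewer cells that express a gene and less of its RNA per cell cannot be told apart.

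Fzd1 and Wnt16, the members with the smallest p-values for inhibited PGE2-EP4 signalling in the fit with the TTF set as a block, are shown by their RefSeq promoter windows (GRCm38.p6, the 250 bases before the annotated start, read along the gene's strand). Capitals mark matches to the TCF/LEF site, searched as CTTTGA or CTTTGT on both strands.
Fzd1, chr5:4758217-4758466, minus strand: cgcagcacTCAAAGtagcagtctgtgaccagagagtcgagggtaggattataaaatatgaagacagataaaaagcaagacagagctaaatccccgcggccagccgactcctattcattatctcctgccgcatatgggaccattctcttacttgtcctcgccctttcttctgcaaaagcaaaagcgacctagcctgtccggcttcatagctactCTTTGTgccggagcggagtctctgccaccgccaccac
Wnt16, chr6:22287977-22288226, plus strand: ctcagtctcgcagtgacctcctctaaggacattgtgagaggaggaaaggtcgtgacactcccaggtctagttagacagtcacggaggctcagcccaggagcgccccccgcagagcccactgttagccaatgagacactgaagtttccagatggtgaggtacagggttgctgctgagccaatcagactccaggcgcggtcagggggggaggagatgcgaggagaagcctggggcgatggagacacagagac
The Fzd1 window held 2 such matches and the Wnt16 window 0, where 27.6% of 32851 promoter windows of that length held at least 1. Neither window held the letters TGACG, the core of the cAMP response element, on either strand; 17.8% of all windows did. Of the 13 members above background in at least 1 array, 6 had a window that was searched. Windows on the chromosome of Fzd8 were left out of this count of members but kept in the shares of all windows. Of the 6, 2 held a TCF/LEF match (Fzd1 and Fzd7) and 0 held TGACG. A match is a run of letters and not a measured binding site.

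Of the 31 members, 13 lay above background in at least 1 array and 9 in all 8. Of all 22206 clusters, 8813 lay above it in all 8, and the number in at least 1 was not computed. The receptors were measured far more often than the ligands. Above background in at least 1 array were 8 of 10 Frizzled genes and both co-receptor genes, against 3 of 19 Wnt genes. The ligands were Wnt5a, Wnt4 and Wnt16. The 16 other Wnt genes (Wnt1, Wnt2, Wnt2b, Wnt3, Wnt3a, Wnt5b, Wnt6, Wnt7a, Wnt7b, Wnt8a, Wnt8b, Wnt9a, Wnt9b, Wnt10a, Wnt10b and Wnt11) were at background in all 8 arrays, between 2.22 and 5.35. They include Wnt1 and Wnt3a, classic activators of beta-catenin. Fzd9 and Fzd10 were at background too (3.51 to 4.51). A value at background does not show that a transcript is absent, only that it was not distinguishable from the background probe sets.

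**Figure D1:**
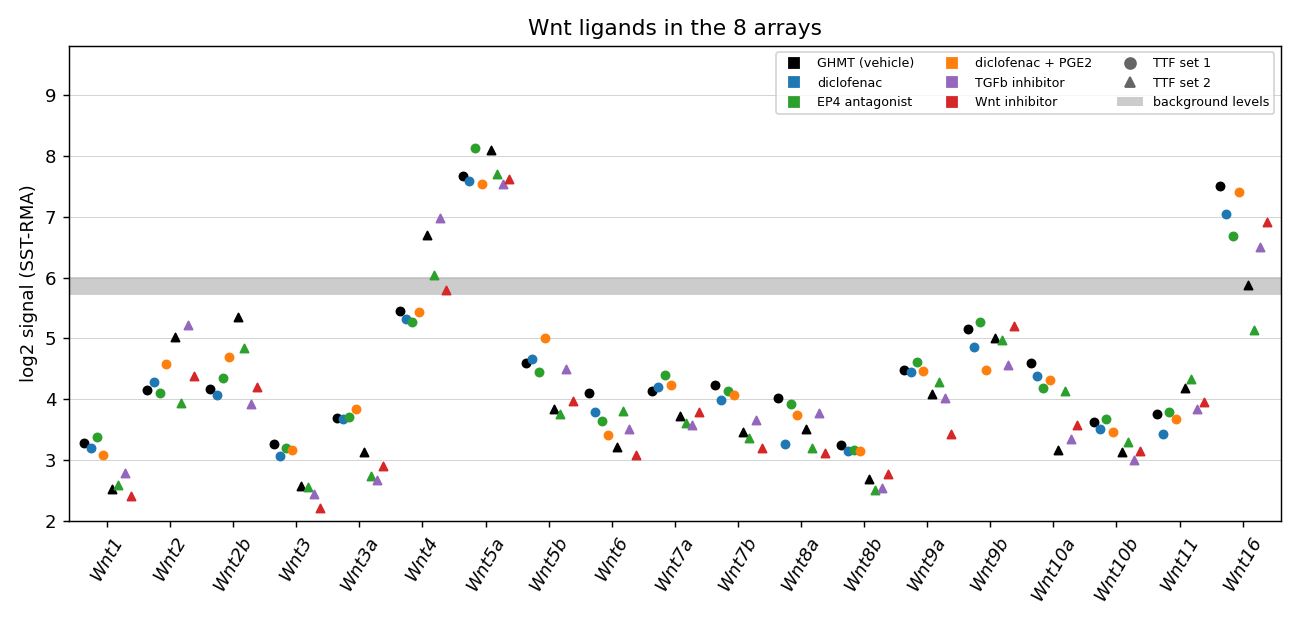
Log2 signal of the 19 Wnt ligand genes (x axis) in the 8 arrays, with 1 point per array, colours for treatments, circles for TTF set 1 and triangles for TTF set 2; the grey band spans the background levels of the arrays (5.73 to 5.99). Wnt5a lay above the band in all 8 arrays, Wnt4 above its own array's level in 3 and Wnt16 in 6, and the 16 other genes below it.

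Wnt5a, the best known ligand of the beta-catenin-independent branch, was the one Wnt gene above background in every array. In set 1 it was at 7.66 in GHMT, 7.59 with diclofenac, 8.13 with the EP4 antagonist and 7.54 with diclofenac plus PGE2. In set 2 it was at 8.10 in GHMT, 7.70 with the EP4 antagonist, 7.53 with the TGFb inhibitor and 7.62 with the Wnt inhibitor. The sets overlapped, and the highest value was the EP4 antagonist array in set 1 but the GHMT array in set 2. The EP4 antagonist minus GHMT was accordingly 0.47 in set 1 and -0.40 in set 2, and the mean difference of 0.03 ± 0.38 (SE, n = 2 each, adjusted p = 1.0 by limma) was within the spread.

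Wnt16, a ligand best known from bone, was above background in all 4 arrays of set 1 and in 2 of set 2. Its values in set 1 were 7.50 in GHMT, 7.05 with diclofenac, 6.68 with the EP4 antagonist and 7.40 with diclofenac plus PGE2. Those of set 2 were 5.87 in GHMT and 5.14 with the EP4 antagonist, both at background, 6.50 with the TGFb inhibitor and 6.91 with the Wnt inhibitor. Within set 1, the arrays with PGE2-EP4 signalling inhibited were the lower ones, and adding PGE2 to diclofenac went with a value 0.35 higher than with diclofenac alone. In set 2 the Wnt inhibitor array was the highest, at least 2.02-fold above the background level of the GHMT array (a log2 difference of 1.04 as measured, or 0.97 after quantile normalization).

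Wnt4, a ligand of kidney and gonad development, was above background in set 2 only. It was at background in all 4 arrays of set 1, at 5.45 in GHMT, 5.32 with diclofenac, 5.27 with the EP4 antagonist and 5.44 with diclofenac plus PGE2. The set 2 values were 6.69 in GHMT, 6.04 with the EP4 antagonist and 6.98 with the TGFb inhibitor, and at background again with the Wnt inhibitor (5.80). All 4 values of set 2 were above those of set 1. The TGFb inhibitor array was at least 2.07-fold above the Wnt inhibitor array, and GHMT at least 1.70-fold above it.

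**Figure D2:**
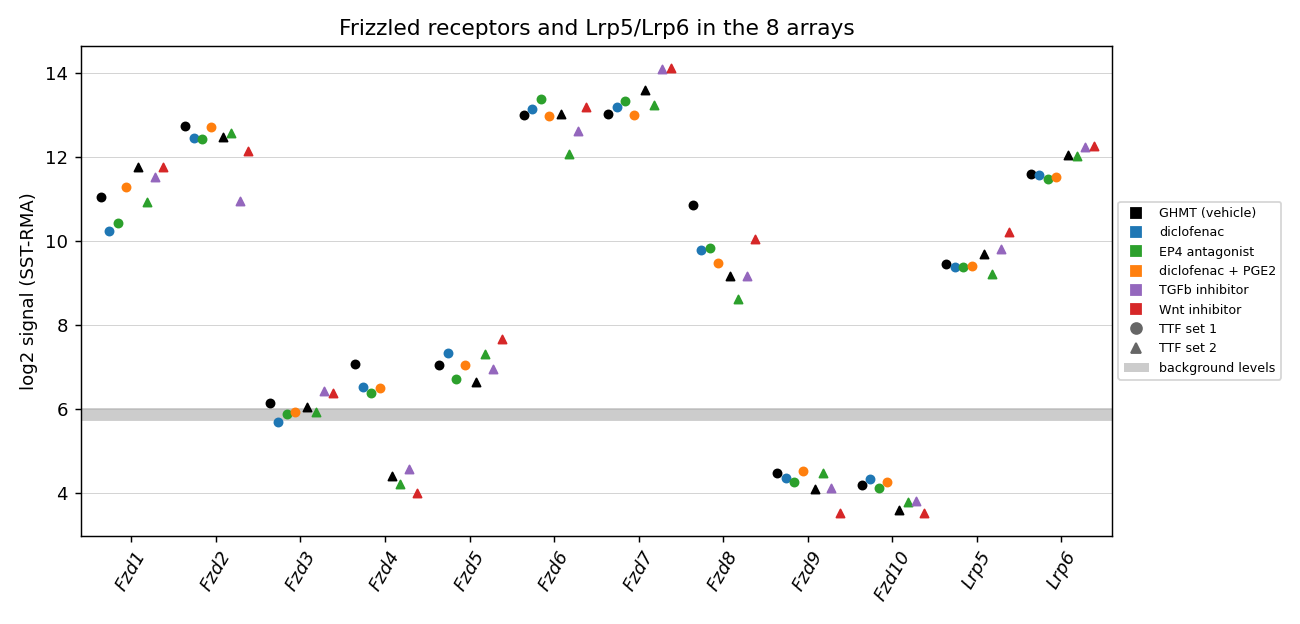
Log2 signal of the 10 Frizzled genes, Lrp5 and Lrp6 (x axis) in the 8 arrays, with points and grey band as for the ligands. Fzd4 was above background in the 4 arrays of set 1 and at background in the 4 of set 2, Fzd2 was lowest with the TGFb inhibitor (10.95), and Fzd9 and Fzd10 were at background in all 8.

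Fzd1, Fzd2 and Fzd7 form a subfamily of closely related receptors. Fzd1 was at 11.05 in GHMT, 10.23 with diclofenac, 10.43 with the EP4 antagonist and 11.27 with diclofenac plus PGE2 in set 1. In set 2, Fzd1 was at 11.75 in GHMT, 10.93 with the EP4 antagonist, 11.51 with the TGFb inhibitor and 11.75 with the Wnt inhibitor. The 3 arrays with PGE2-EP4 signalling inhibited were the 3 lowest of the 8, and with PGE2 added back to diclofenac Fzd1 was 1.04 higher (2.06-fold) than with diclofenac alone. That contrast and diclofenac minus GHMT (-0.82) share the diclofenac array, the lowest of the 8, and so are not independent of each other.

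Fzd2 was at 12.74 in GHMT, 12.45 with diclofenac, 12.42 with the EP4 antagonist and 12.72 with diclofenac plus PGE2 in set 1, and at 12.46, 12.57, 10.95 and 12.14 in the GHMT, EP4 antagonist, TGFb inhibitor and Wnt inhibitor arrays of set 2. The TGFb inhibitor array stood alone, 2.85-fold below GHMT of its set (-1.51) and 2.28-fold below the Wnt inhibitor (-1.19). Fzd7 was at 13.03, 13.18, 13.32 and 12.99 in the GHMT, diclofenac, EP4 antagonist and diclofenac plus PGE2 arrays of set 1. Its set 2 values were 13.58 in GHMT and 13.23 with the EP4 antagonist, and higher with the TGFb inhibitor (14.09) and the Wnt inhibitor (14.11). Fzd2 and Fzd7 thus differed from GHMT in opposite directions with the TGFb inhibitor, by -1.51 and 0.51.

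Fzd5 and Fzd8 form another pair of close relatives. Fzd8 was at 10.85 in GHMT of set 1 and lower in the 3 treated arrays, at 9.78 with diclofenac, 9.82 with the EP4 antagonist and 9.46 with diclofenac plus PGE2. These are differences of -1.07, -1.03 and -1.39, and adding PGE2 did not go with a value nearer to GHMT. The arrays of set 2 gave 9.15 in GHMT, 8.61 with the EP4 antagonist, 9.15 with the TGFb inhibitor and 10.05 with the Wnt inhibitor. The 3 contrasts of set 1 share the GHMT array, which was the highest of the 8, and so are not independent of each other.

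Fzd5 was at 7.04 in GHMT, 7.33 with diclofenac, 6.72 with the EP4 antagonist and 7.04 with diclofenac plus PGE2 in set 1. Fzd5 in set 2 was at 6.64 in GHMT, 7.30 with the EP4 antagonist, 6.95 with the TGFb inhibitor and 7.67 with the Wnt inhibitor. The Wnt inhibitor array was the highest of the 8 and 2.04-fold above GHMT of set 2, while the EP4 antagonist arrays lay on opposite sides of GHMT in the sets (-0.32 and 0.66).

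Fzd3 and Fzd6, receptors known for planar polarity, are a further pair. Fzd6 was at 13.00, 13.15, 13.37 and 12.97 in the GHMT, diclofenac, EP4 antagonist and diclofenac plus PGE2 arrays of set 1. Its values in set 2 were 13.03 in GHMT, 12.07 with the EP4 antagonist, 12.61 with the TGFb inhibitor and 13.18 with the Wnt inhibitor. The EP4 antagonist array was thus the highest of set 1 and the lowest of set 2. Fzd3 stayed close to background, at 6.14, 5.68, 5.88 and 5.93 in the same order of set 1 arrays and at 6.05, 5.92, 6.43 and 6.38 in the GHMT, EP4 antagonist, TGFb inhibitor and Wnt inhibitor arrays of set 2. It was below the background level with diclofenac and the EP4 antagonist of set 1 and above it in the 6 other arrays.

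Fzd4, which binds Norrin as well as Wnt proteins, divided the sets. It was at 7.06 in GHMT, 6.52 with diclofenac, 6.38 with the EP4 antagonist and 6.49 with diclofenac plus PGE2 in set 1. All 4 arrays of set 2 were at background, with 4.41 in GHMT, 4.20 with the EP4 antagonist, 4.56 with the TGFb inhibitor and 4.00 with the Wnt inhibitor.

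The co-receptors differed little within set 1. Lrp5 was at 9.45 in GHMT, 9.38 with diclofenac, 9.38 with the EP4 antagonist and 9.40 with diclofenac plus PGE2 there, and in set 2 was at 9.68 in GHMT, 9.22 with the EP4 antagonist, 9.81 with the TGFb inhibitor and 10.22 with the Wnt inhibitor. Lrp6 was at 11.60, 11.56, 11.48 and 11.51 in the GHMT, diclofenac, EP4 antagonist and diclofenac plus PGE2 arrays of set 1. Its set 2 values were 12.04 in GHMT, 12.01 with the EP4 antagonist, 12.23 with the TGFb inhibitor and 12.25 with the Wnt inhibitor. The sets did not overlap for Lrp6, while within a set its largest difference from GHMT was 0.21.

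The first tested comparison asked whether these genes change when PGE2-EP4 signalling is inhibited. The inhibited arm held diclofenac and the EP4 antagonist of both sets (n = 3) and the active arm GHMT of both sets and diclofenac plus PGE2 (n = 3). In the fit without the TTF set, 0 of the 31 members passed an adjusted p of 0.05 (Benjamini-Hochberg over all 22206 clusters, limma), against 0.0% of all clusters, and 1 member, Fzd1, had an unadjusted p under 0.05 (469 clusters, 2.11%). With the TTF set as a block, 84 clusters passed (0.378%) and still 0 members; 2 members, Fzd1 and Wnt16, were under 0.05 unadjusted (1925 clusters, 8.67%). These 84 calls depended on single arrays: with the block, 192 clusters were called without GHMT of set 1, 17 without diclofenac plus PGE2, 4 without the EP4 antagonist of set 1, 2 without diclofenac, and 0 when an array of set 2 was left out, and members called were 0 each time. Values with the block are given beside those without. The median difference over the 31 members was -0.09 and that over all clusters -0.01.

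Fzd1 had the largest difference of the 13 measured members, -0.83 ± 0.28 (SE, adjusted p = 1.0 by limma) without the block and -0.83 ± 0.15 (adjusted p = 0.0673 by limma) with it. It missed the threshold in every fit made, with limma adjusted p of 0.0594 to 0.329 in the fits with the block, leave-outs included. The difference was below 0 whichever array was left out (-1.03 to -0.63), which was fixed in advance because its arms did not overlap. Wnt16 was at -0.63 ± 0.57 (adjusted p = 1.0 by limma) without the block and -0.63 ± 0.16 (adjusted p = 0.199 by limma) with it. Without the block it ranged from -1.16 when GHMT of set 2 was left out to -0.06 when the EP4 antagonist of set 2 was; with the block, leaving out an array gave -0.75 to -0.54. The other 11 measured members were between -0.42 and 0.21, with limma adjusted p of 0.654 to 0.977 in the fit with the block.

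Without overlap of the arms over all 6 arrays, 3 members were lower in the inhibited arm: Fzd1, Fzd3 and Lrp5, or 9.68% of members, where 3.09% of all clusters met this rule. The differences of Fzd3 (-0.21 ± 0.21) and Lrp5 (-0.18 ± 0.21) were no larger than their SE in the fit without the block. With the block the SE were 0.15 and 0.16, below the differences, and the adjusted p by limma 0.792 and 0.834. Higher in the inhibited arm without overlap were 0 members and 2.75% of all clusters. Compared within each set, 5 members were lower in every inhibited array, Wnt4 and Wnt16 beside these 3 (16.1%, against 10.6% of all clusters), and 0 were higher in each set (9.43% of all clusters). The order of Wnt4 in set 1 and of Wnt16 in set 2 is among arrays at background and cannot be read as a difference, and the Fzd3 values of diclofenac and the EP4 antagonist in set 1 were also at background. These rules were chosen after the values were seen, and the counts are small.

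**Figure D3:**
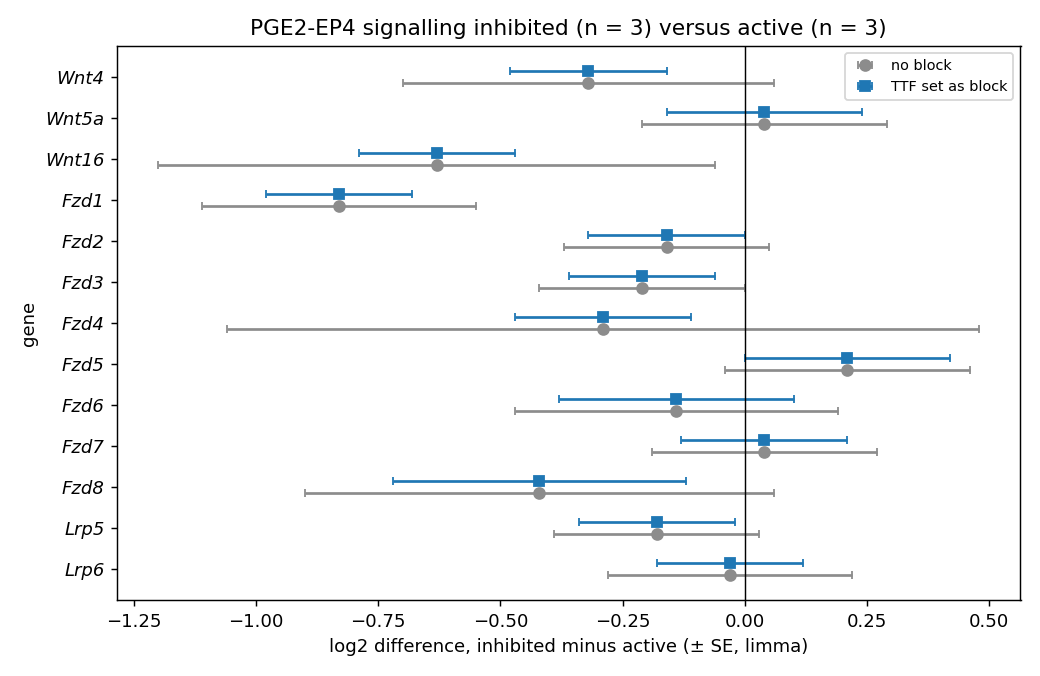
Fitted log2 difference, inhibited minus active arm (x axis, 3 arrays each), of the 13 members above background in at least 1 array; grey points are fits without and blue squares fits with the TTF set as a block, bars are SE. Fzd1 (-0.83) and Wnt16 (-0.63) lie farthest below 0, and none passed the threshold in either fit.

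The EP4 antagonist was also compared with GHMT alone (n = 2 each), on 4 of the same 6 arrays. By limma, 0 members and 0 clusters (0.0%) passed without the block, where 0 members and 144 clusters (0.648%) were under an unadjusted p of 0.05. With the block, 0 members and 0 clusters (0.0%) passed again, and 3 members and 1243 clusters (5.60%) were under 0.05 unadjusted. The 3 were Wnt16 (-0.78 ± 0.20, adjusted p = 0.743 by limma with the block), Fzd1 (-0.72 ± 0.20, 0.771) and Fzd8 (-0.78 ± 0.22, 0.771). Within the sets, Wnt16 differed by -0.82 in set 1, with both its arrays in set 2 at background, Fzd1 by -0.62 and -0.82, and Fzd8 by -1.03 and -0.54. Fzd4 differed by -0.68 in set 1 and was at background in both arrays of set 2. Wnt5a, Fzd2, Fzd5, Fzd6 and Fzd7 differed in sign between the sets, and the share of all clusters that did so was not computed. Wnt4, Fzd3, Lrp5 and Lrp6 were lower with the EP4 antagonist in both, the largest of these differences being that of Wnt4 in set 2 (-0.65), and Wnt4 was at background in set 1.

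Each remaining contrast compared a single array with a single array of its TTF set and has no replicate check. As a guide to their spread, the EP4 antagonist contrast was measured in both sets, and over all clusters the SD of a single contrast computed from that pair was 0.373. In set 1, diclofenac, the EP4 antagonist and diclofenac plus PGE2 each had 1 member at least 2-fold from GHMT, Fzd8 each time, where 1.81%, 1.60% and 1.81% of all clusters were that far apart. Diclofenac plus PGE2 was at least 2-fold from diclofenac in 1 member, Fzd1 (2.16% of all clusters). Diclofenac plus PGE2 differed from GHMT by -1.39 for Fzd8 and -0.57 for Fzd4. The other measured members were between -0.21 (Fzd3) and 0.22 (Fzd1), with Wnt4 at background in both arrays. The share of all clusters in that range was not computed.

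In set 2, the EP4 antagonist had 1 member past 2-fold (2.74% of all clusters), Wnt2, which was at background in both arrays; the next was Fzd6 (-0.96). The TGFb inhibitor had 2 (5.36%), Fzd2 and, at background in both arrays, Wnt2b. The Wnt inhibitor had 3 (4.10%): Fzd5 (1.03), Wnt16 and, at background in both arrays, Wnt2b. Below 2-fold were Fzd8 (0.90), Lrp5 (0.54) and Fzd7 (0.53), and Wnt4, at background with the Wnt inhibitor, was at least 1.70-fold lower. The TGFb and Wnt inhibitor arrays were 2-fold apart in 2 members (4.22%), Wnt4, higher with the TGFb inhibitor, and Fzd2, lower with it.

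**Figure D4:**
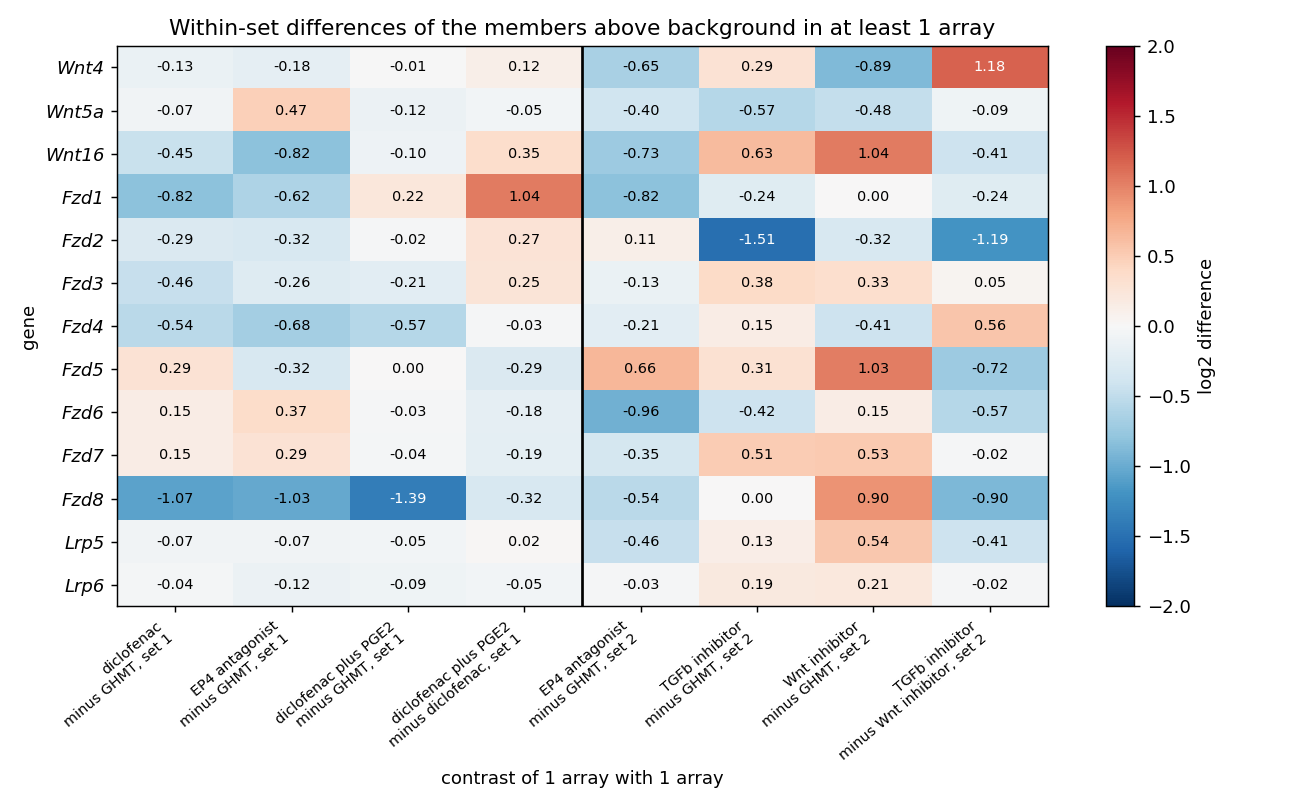
Log2 differences of 1 array from 1 array within a TTF set (columns; set 1 left of the line, set 2 right) for the 13 members above background in at least 1 array (rows), red for higher and blue for lower in the first named array. Fzd1 is lower with diclofenac (-0.82) and the EP4 antagonist (-0.62 and -0.82) and 1.04 higher with PGE2 added to diclofenac. The -0.82 with diclofenac and the 1.04 share the diclofenac array. Fzd2 is lower with the TGFb inhibitor (-1.51), and Fzd8 is lower in all 3 treated arrays of set 1.

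Between the sets, the measured values of 6 members were 2-fold or more apart in the GHMT arrays (13.7% of all clusters) and 4 in the EP4 antagonist arrays (12.6%). In the same direction in both there were 3 (5.98% of all clusters). All 3 had lower measured values in set 2, in GHMT and the EP4 antagonist respectively: Wnt16 (-1.63 and -1.54), Fzd4 (-2.65 and -2.18) and Fzd8 (-1.70 and -1.21), and 2.49% of all clusters were that much lower. Fzd8 was above background in these arrays. For Wnt16 and Fzd4, whose set 2 arrays were at background, the folds are only bounded, at least 3.04 and 1.81 for Wnt16 and at least 2.24 and 1.47 for Fzd4 in GHMT and the EP4 antagonist. None of the 31 was at least 2-fold higher in set 2 in both (3.49% of all clusters). All 4 arrays of set 2 lay above all 4 of set 1 for 3 members (12.9% of all clusters), Wnt4, Lrp6 and, at background, Wnt11. They lay below for 11 members (26.0%), of which Fzd4 alone was above background in any array. The median over all clusters was itself lower in set 2 (-0.16 in both contrasts), and after median centring and after quantile normalization the count of members 2-fold lower or higher in both was again 3. The fibroblast set and any difference in how its arrays were processed cannot be told apart.

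Other genes of the pathway were taken from 7 lists, in which 67 genes beside the members were matched. By limma, 0 of them passed for inhibited against active PGE2-EP4 signalling without the block (0.0% of all clusters) and 1 with it (0.378%). The 1 was Rspo3, an R-spondin that binds Lgr receptors and raises the amount of Frizzled at the cell surface. In set 1, Rspo3 was at 12.35 in GHMT, 11.27 with diclofenac, 11.29 with the EP4 antagonist and 13.30 with diclofenac plus PGE2. In set 2 it was at 13.04 in GHMT, 11.15 with the EP4 antagonist, 10.60 with the TGFb inhibitor and 12.69 with the Wnt inhibitor. The 3 inhibited arrays were all lower than the 3 active ones, a rule that 3.09% of all clusters met. The mean difference was -1.66 ± 0.23 (SE, adjusted p = 0.022 by limma with the block, 0.686 without it). The call with the block was lost when any array other than GHMT of set 1 was left out: adjusted p by limma was 0.145 without diclofenac, 0.167 without the EP4 antagonist of set 1, 0.0703 without diclofenac plus PGE2 and 0.203 without either array of set 2 (-1.70 to -1.42), against 0.00125 without GHMT of set 1.

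Secretion of Wnt proteins needs Porcn, which attaches their lipid, and Wls, their carrier. Wls (14.47 to 14.98) and Porcn (6.82 to 7.70) were above background in all 8 arrays, and 0 of 4 genes of the secretion list were 2-fold apart in any within-set contrast. Among the other receptors and their regulators, 11 of 15 matched genes were above background in all 8 arrays. Lgr4, an R-spondin receptor, was 2.07-fold higher with the Wnt inhibitor than in GHMT of set 2 (14.04 against 12.99), and Lgr5 was at least 1.87-fold higher with the TGFb inhibitor.

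Of 13 secreted antagonists, 4 were above background in all 8 arrays: Sfrp1, Sfrp2, Dkk2 and Dkk3. Sfrp2, which binds Wnt proteins outside the cell, was 2.75-fold to 4.32-fold lower than GHMT in the 3 treated arrays of set 1, the arrays in which Fzd8 was lower; both genes' contrasts share that GHMT array. In set 2 Sfrp2 was higher with the TGFb inhibitor (13.74) and the Wnt inhibitor (13.86) than in GHMT (9.67), and the EP4 antagonist array was at 10.38, on the other side of GHMT from set 1. Sfrp1 was 4.76-fold lower with the EP4 antagonist in set 2, while in set 1 it was at 12.30 with the antagonist and 12.67 in GHMT. With diclofenac plus PGE2 it was at 13.86, 2.75-fold above diclofenac and 2.28-fold above GHMT. Dkk3 was 2.36-fold higher with the Wnt inhibitor. Dkk2 was 3.14-fold higher with the TGFb inhibitor than with the Wnt inhibitor, and Wif1 was at 5.86 with the EP4 antagonist of set 2, just above background, and at 4.66 in GHMT. Rspo2, a relative of Rspo3, was 2.35-fold higher with the EP4 antagonist and 2.45-fold higher with the Wnt inhibitor in set 2, where GHMT was just above background (5.96). In set 1, Rspo2 was at 6.82 with diclofenac and at background with diclofenac plus PGE2 (5.41), at least 2.03-fold lower.

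Of 9 matched beta-catenin feedback targets, 2 had measured values 2-fold or more lower with the Wnt inhibitor and 0 higher, where 4.10% of all clusters were that far apart. The median difference over the 9 was -0.12. Axin2, the most widely used target, was at 6.89 in GHMT of set 2 and at background with the inhibitor (4.44), which bounds its fold at 1.95 or more, and Apcdd1 was 3.56-fold lower. With the TGFb inhibitor, Nkd2 was 4.86-fold higher and Lgr5, at background in GHMT, at least 1.87-fold higher. Among 13 matched transduction genes, Tcf7l2 was 2.04-fold higher with the TGFb inhibitor. Among 12 genes of the polarity and calcium branch, Vangl1, a polarity protein that works with Fzd3 and Fzd6, was 2.33-fold lower with the EP4 antagonist in set 2, where Fzd6 was lowest. Prickle2 was 2.73-fold lower with the TGFb inhibitor than with the Wnt inhibitor, and Nlk was 2.00-fold higher with diclofenac.

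Of the 5 cardiomyocyte markers, 2, Actc1 and Myh6, passed as higher in the inhibited arm by limma with the block and 0 passed without it. With the block, 84 of all clusters (0.378%) passed, and 0 did, these 2 markers included, when an array of set 2 was left out. The summed log2 signal of the 5 markers was 65.54 to 68.58 in the inhibited arrays and 57.89 to 59.95 in the active ones. That of the 6 fibroblast markers was 82.31 to 85.05 and 86.22 to 90.25. Neither pair of ranges overlapped, as for Fzd1. Of all single clusters, 3.09% were lower and 2.75% higher in the inhibited arm without overlap. With the TGFb and Wnt inhibitors of set 2, the cardiomyocyte sums were 65.82 and 67.79, the fibroblast sums 83.39 and 85.76, and the Fzd1 differences from GHMT -0.24 and 0.00. The part of these markers in the Fzd1 and Wnt16 values was not tested.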

How the data were processed

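RNA from 8 cultures was measured on Clariom S Mouse arrays, 1 per array. The deposited values are log2 signals per transcript cluster, which the authors normalized by the SST-RMA algorithm, per the series' design text, in Affymetrix Expression Console 1.4, per the submitters' processing notes. It is unknown whether normalization spanned both sets, and a genome build was not given in the sources used here. Arrays are few, which limits the precision.

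Of 28846 rows, 6640 control probe sets were left out of tests. Of 22206 clusters, 19572 had 1 symbol, 0 several and 2634 none. For the 55 symbols on several clusters the highest mean was used. Groups and the TTF set, which served as replicate number, came from the titles. The titles attach the number to the fibroblasts, so it pairs samples; across clusters, the deviations from the mean of each group correlated between GHMT and the EP4 antagonist (r = 0.724).

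Tests were two-sided with limma 3.58.1 (lmFit, eBayes) in R 4.3.3, over all clusters, and were tested on simulated data. Single-array contrasts were counted at 2-fold on the measured values, those at background included. An "at least" fold is measured against the background level of the lower array. Every member was to be described, and other pathway genes named if 2-fold apart with the higher array above background, or past the threshold. Members and lists were chosen with earlier results of these data known. The alternatives were other normalizations, priors, filters, folds and background levels, and leaving out each array.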

Additional observations from a re-analysis of the deposited data

Results flagged for a closer look

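With 1 array per treatment in a set, the difference between the sets could not be tested. In 5 members above background in all 4 arrays concerned, the EP4 antagonist array lay on opposite sides of GHMT in the sets. The share of all clusters that did so was not computed. Over all clusters, the SD of a single contrast was 0.373, and both differences of Fzd2 and of Fzd7 were smaller than that. The EP4 antagonist minus GHMT was 0.47 in set 1 and -0.40 in set 2 for Wnt5a, and -0.32 and 0.11 for Fzd2. For Fzd5 it was -0.32 in set 1 and 0.66 in set 2, for Fzd6 0.37 and -0.96, and for Fzd7 0.29 and -0.35. The gap between the sets was widest for Fzd6.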

How the results depend on the processing

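No member passed the threshold in any of the limma fits tried for either tested comparison. The number of all clusters called moved: for inhibited against active signalling from 0 to 84 with the replicate block and 78 with the block and quantile normalization, and to 0 to 192 over the leave-one-out fits with and without the block; for the EP4 antagonist from 0 to 31 with the block and quantile normalization, and to 1 to 25 over the leave-outs, which leave the arms unequal in sets and, with 1 array in an arm, assume that it varies like the others. Leave-one-out with the block had no residual degrees of freedom for the EP4 antagonist. Among the members followed (Wnt4, Wnt16, Fzd1, Fzd3, Fzd4, Fzd8 and Lrp5), signs turned only in leave-outs without the block. For inhibited against active, these leave-out ranges were -0.56 to 0.10 for Wnt4, -0.75 to 0.10 for Fzd8 (down to -0.83 with the block) and -1.08 to 0.46 for Fzd4. For the EP4 antagonist they were -1.59 to 0.04 for Wnt16, -1.03 to 0.20 for Wnt4, -1.64 to 0.07 for Fzd8 and -1.77 to 0.88 for Fzd4. Fzd1, Fzd3 and Lrp5 kept their sign in all fits of both comparisons. In the leave-outs this was fixed in advance, because the arms of these genes did not overlap. At 1.5-fold in place of 2-fold, members counted were 3 for diclofenac, 4 for the EP4 antagonist, 3 for diclofenac plus PGE2 and 2 for PGE2 added to diclofenac in set 1, and, in set 2, 8 with the EP4 antagonist, 4 with the TGFb inhibitor, 8 with the Wnt inhibitor and 9 between these inhibitors, or 41 in all against 12, and 8 against 3 between the sets. Median centring gave 2 for the EP4 antagonist in set 2. Counting only members whose higher array lay above background, an alternative chosen after seeing the data, gave 0 for it and 1 for the TGFb inhibitor against GHMT. With the median of the background probe sets as the level, 17 members reached it in at least 1 array, and with the highest probe set 13. In all 8 arrays, 12 members were above the median, with Wnt4, Wnt16 and Fzd3 among them, and 8 above the highest probe set, without Fzd5. The highest probe set of the TGFb inhibitor array was at 7.13, above its Wnt4 value of 6.98. Which arrays count as at background for these genes, and the "at least" folds, thus depend on the level chosen. No member has several clusters, so the choice of cluster changed nothing. The levels limit what can be said of the 18 members at background.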
